A study of Homo sapiens with 6 samples.

Results

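Cystatins are protein inhibitors of cysteine proteases. The 7 genes described here are CST1, CST2, CST3, CST4, CST6, CSTA and CSTB, out of 58735 genes in the deposited tables. They were taken by gene name and had been chosen by their measured counts and FPKM in slow-cycling against rapid-cycling cells. That difference is therefore given for them as a description, without a test. Of the 7, 6 passed the filter on low counts that left 15881 genes for testing, and CSTA did not.

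The cells were MDA-MB-231, an established human triple-negative breast cancer line, labelled as wild type. They were stained with PKH26, a membrane dye that is diluted at each division, and grown for 12 days without further stain. Slow-cycling cells (SCC) were the brightest 1% in a cell sorter, and rapid-cycling cells (RCC) were cells of moderate brightness, which the sample characteristics name as low in dye. Both groups came from the same stained line, so neither is unstained, and each had 3 biological replicates, 6 RNA-seq libraries in all. The labels do not say whether the replicates were separate cultures, so a p-value measures only the spread between these libraries.

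Cystatins fold into a wedge that blocks the active site of papain-like cathepsins, the proteases that break down proteins in lysosomes and, when secreted, in the matrix around cells. Type 1 cystatins, or stefins (CSTA, CSTB), lack a signal peptide and act mainly inside cells. Type 2 cystatins (CST1 to CST4 and CST6 here) are secreted. Cystatin C, from CST3, is made by nearly all cell types, whereas cystatins SN, SA and S (CST1, CST2, CST4) are best known from saliva and tears. Cystatins C and E/M also inhibit legumain, a lysosomal protease that cleaves after asparagine.

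CST1, CST2 and CST4 are near copies of each other, which bears on how reads can be assigned to them. All 3 have a coding sequence of 426 bases, and the sequence of CST1 was 92.7% identical to that of CST4 and 91.3% to that of CST2. CST2 and CST4 were 92.5% identical. CST3, with 441 coding bases, was 69.8% identical to CST1, and CSTB was 44.1% identical to CST1 and 58.7% to CSTA. The longest run of identical coding bases was 152 between CST1 and CST4, and 87 between CST2 and either of them. A read that falls inside such a run cannot be assigned to 1 gene.

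Over whole annotated transcripts, 6.86% of the 100-base stretches of CST1 also occurred in CST4, and 8.13% of those of CST4 in CST1. No 100-base stretch of CST2, CST3, CST6, CSTA or CSTB occurred in a transcript of another gene. With 50-base stretches the shares were 23.6% for CST1, 30.2% for CST4 and 8.30% for CST2. Read length and the handling of reads with several matches were not given in the sources used here, so the values of CST1, CST2 and CST4 are uncertain to that extent. How far reads of 1 gene were counted in another was not tested.

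The depth of the libraries limits what can be said of the rarest members. Total counts ran from 17655855 to 27831824, the deepest library being SCC replicate 1. That library stood apart from the others of its group, as its chi-square over the degrees of freedom was 28.5 and 21.4 against SCC replicates 2 and 3, where pairs of the other libraries within a group gave 3.28 to 4.24. Summed markers of the line (VIM, CD44, AXL, MSN, CAV1) were at 3640 to 3740 CPM (counts scaled to library depth) in SCC and 3520 to 3730 in RCC. Among epithelial markers PGR had no count in 5 libraries, ESR1 stayed at or under 0.70 CPM and CDH1 at or under 0.43. EPCAM was at 3.61 to 5.73 CPM, and ERBB2 and KRT18 were present. The 6 blood cell markers summed to 1.02 to 3.49 CPM in SCC and 0.765 to 1.17 in RCC, with CD3E at 0 in 5 libraries. PTPRC, a leukocyte marker, reached 1.97 CPM in SCC replicate 1 and was at or under 0.71 elsewhere. ITGAM, a myeloid marker, had 26, 7 and 7 counts in SCC and 3, 3 and 2 in RCC, with no overlap. The part of these markers in any cystatin value was not tested. In such sorted bulk samples, a larger share of expressing cells and more RNA per cell cannot be told apart.

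CST1 (ENSG00000170373, chromosome 20, 23747553 to 23751268, minus strand) encodes cystatin SN. Its level was 129.7, 101.5 and 120.9 CPM in SCC replicates 1 to 3 and 40.6, 45.9 and 45.8 CPM in RCC replicates 1 to 3. Every SCC library thus lay above every RCC library, and the lowest SCC value was that of replicate 2. The mean of the SCC libraries was 117 ± 14.4 CPM, and that of the RCC libraries 44.1 ± 3.01 (SD, n = 3). The fitted log2 fold change was 1.41 (standard error 0.099), or 2.67-fold (2.49 to 2.86 over 1 standard error). By length-scaled level (FPKM, fragments scaled to gene length and library depth), CST1 ranked between 190 and 264 among 19951 protein-coding genes in the SCC libraries and between 708 and 815 in RCC.

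CST4 (ENSG00000101441, chromosome 20, 23685640 to 23689040, minus strand) encodes cystatin S. Its values were 89.99, 58.6 and 86.0 CPM in SCC and 27.6, 33.2 and 30.1 CPM in RCC. As with CST1, the groups did not overlap and SCC replicate 2 was the lowest of its group. The means were 78.2 ± 17.1 and 30.3 ± 2.81 CPM (SD, n = 3), a log2 fold change of 1.37 with a standard error of 0.146. CST4 ranked between 255 and 443 of the protein-coding genes in SCC and between 898 and 1117 in RCC.

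CST2 (ENSG00000170369, chromosome 20, 23823769 to 23826731, minus strand), for cystatin SA, was far lower. It had 90, 39 and 84 counts in SCC and 31, 17 and 15 counts in RCC. Scaled to depth these were 3.34, 1.99 and 3.98 CPM against 1.35, 0.81 and 0.84, so the groups again did not overlap, with SCC replicate 2 lowest among SCC and RCC replicate 1 highest among RCC. The log2 fold change was 1.62 (standard error 0.323), the widest error of the 3 salivary-type genes. On log2(FPKM + 1), where the added 1 weighs on a gene this low, it was 1.11.

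**Figure D1:**
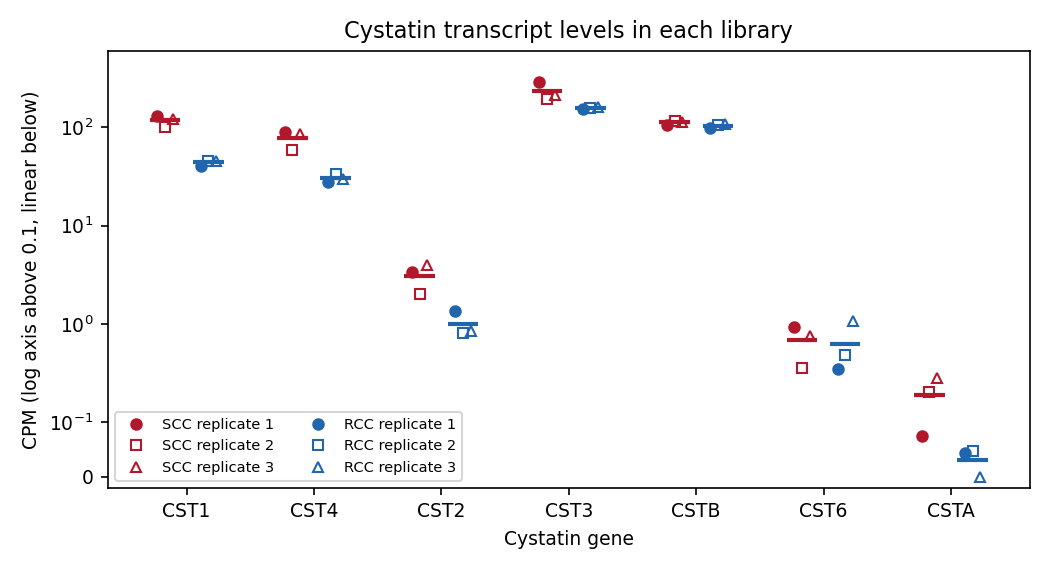
Level of each cystatin (CPM, log axis above 0.1 and linear below) in the 3 SCC and 3 RCC libraries, symbols standing for replicates and bars for group means. SCC libraries sit above RCC libraries for CST1, CST4, CST2, CST3 and CSTA, the last on 0 to 6 counts per library, and the groups overlap for CSTB and CST6.

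The ratios among the 3 salivary-type genes overlapped between the groups. The ratio of FPKM of CST4 to CST1 was 0.806, 0.671 and 0.826 in SCC and 0.789, 0.841 and 0.764 in RCC. SCC replicate 2 had the lowest ratio, and the other 5 libraries lay within 0.764 to 0.841. The ratio of CST2 to CST1 was 0.0229 to 0.0384 in SCC and 0.0206 to 0.0387 in RCC. By contrast the ratio of CST3 to CST1 was 0.416 to 0.530 in SCC and 0.806 to 0.889 in RCC, with no overlap. These ratios are taken from the same libraries that served to choose the genes and are given as a description.

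CST3 (ENSG00000101439, chromosome 20, 23626706 to 23638473, minus strand), for cystatin C, lies next to CST4 and had the most counts of the 7. Its values were 291 CPM in SCC replicate 1, 193 and 213 CPM in SCC replicates 2 and 3, and 153, 157 and 162 CPM in RCC. SCC replicate 1 was far above the other 5 libraries, and SCC replicate 2 exceeded the highest RCC library by less than the spread within SCC. The means were 232.5 ± 52.0 and 157 ± 4.57 CPM (SD, n = 3), with a log2 fold change of 0.57 and a standard error of 0.126. Without SCC replicate 1 the log2 fold change was 0.37 (standard error 0.050). The transcripts of 873 and 832 bases that hold the whole coding sequence of CST3 had a GC content of 65.1% and 64.1%, against 58.3% for the longest CST1 transcript, and SCC replicate 1 is the library that stands apart. The part of base composition in the CST3 value was not tested. With an offset for GC content the log2 fold change was 0.61, but that offset used the 3286-base transcript of CST3, whose GC content is 45.9%.

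CSTB (ENSG00000160213, chromosome 21, 43772511 to 43776445, minus strand), for the stefin cystatin B of cytosol and nucleus, was nearly level across the libraries. It was at 106, 117 and 113 CPM in SCC and 97.9, 107 and 107 CPM in RCC. The lowest SCC library lay below the highest RCC libraries, so the groups overlapped. Means were 112 ± 5.26 and 104 ± 5.25 CPM (SD, n = 3), and the log2 fold change of 0.11 had a standard error of 0.071.

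CST6 (ENSG00000175315, chromosome 11, 66011841 to 66013505, plus strand) encodes cystatin E/M, a gene known to be silenced by promoter methylation in many breast cancers. It had 25, 7 and 16 counts in SCC and 8, 10 and 19 counts in RCC, or 0.36 to 0.93 CPM against 0.35 to 1.06. The groups overlapped, the highest level being in RCC replicate 3. The log2 fold change was 0.18 (standard error 0.503), and over the alternatives it ran from -0.15 with the GC offset to 0.74 without RCC replicate 3. It was -0.12 without SCC replicate 1, -0.14 without RCC replicate 1, 0.45 without SCC replicate 2, 0.10 without SCC replicate 3 and 0.02 without RCC replicate 2.

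CSTA (ENSG00000121552, chromosome 3, 122325244 to 122341972, plus strand), for cystatin A, a stefin of the epidermis, was close to the limit of detection. It had 2, 4 and 6 counts in SCC and 1, 1 and 0 in RCC. The counts summed to 12 in SCC and 2 in RCC, too few for a fold change.

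In CST1, CST2, CST3 and CST4 every SCC library was above every RCC library, as it was in 14.4% of the genes that passed the filter, and in 27.8% the groups did not overlap in either direction. Because the genes were chosen with this contrast known, nothing is read from that count.

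**Figure D2:**
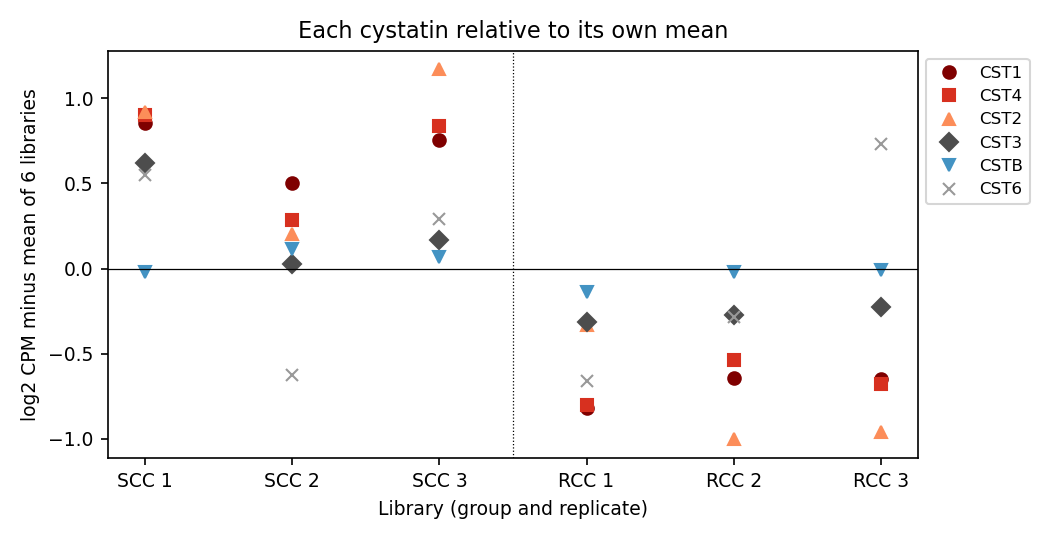
The log2 CPM (a small count added before the log) of each cystatin that passed the count filter, minus its own mean over the 6 libraries, by library. CST1, CST4 and CST2 lie together, between 0.20 and 1.17 in SCC and between -1.0 and -0.33 in RCC, CSTB stays between -0.14 and 0.12, and CST3 reaches 0.62 in SCC replicate 1 only, with 0.17 or less in the other libraries.

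Summed over the 7 genes, cystatin transcripts were at 622, 473 and 538 CPM in SCC and 321, 344 and 347 CPM in RCC. CST1 took 21.6% ± 0.816 of these counts in SCC and 13.1% ± 0.359 in RCC (SD, n = 3). The share of CST4 was 14.3% ± 1.80 and 8.98% ± 0.593, and that of CSTB 20.9% ± 3.81 and 30.8% ± 0.257. CST3 held 42.4% ± 3.89 and 46.6% ± 1.03, the largest share in both groups.

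Levels of different genes can be compared only per length, and the order then turned on the length used. With the deposited FPKM, the means over 6 libraries were 91.99 for CST1, 71.8 for CST4, 52.4 for CST3, 27.3 for CSTB, 2.73 for CST2, 0.858 for CST6 and 0.0791 for CSTA. CST1 was above CST4 in 6 of 6 libraries and CST3 above CSTB in 6 of 6, while CST4 was above CST3 in 4 of 6, the exceptions being RCC replicates 1 and 3. CST2 was above CST6 in 5 of 6 libraries, all but RCC replicate 3. CSTB was above CST2 in every library. Because these levels served to choose the genes, the order is a description, given without a test.

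The deposited length of a gene is the length of all its annotated exons joined, 3695 bases for CST3 and 3935 for CSTB against 872 for CST1 and 751 for CST4. FPKM divides by that length whether or not the cells use every exon. With the shortest transcript that holds the whole coding sequence, a length chosen after seeing the data, CST3 came first with 233, followed by CST1 with 122, CST4 with 71.8 and CSTB with 49.7. With the longest such transcript the deposited order was kept, with 106 for CST1 and 58.9 for CST3. Which transcript the cells use cannot be read from counts per gene.

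**Figure D3:**
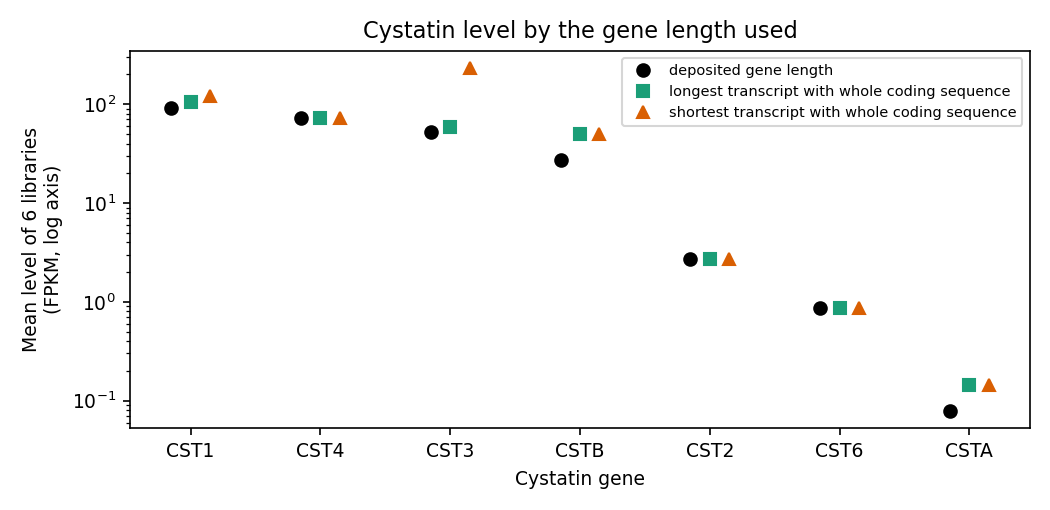
Mean level of each cystatin over the 6 libraries (FPKM, log axis) with the deposited gene length and with the longest and shortest transcripts that hold the whole coding sequence. CST3 moves from 52.4 to 233 with the length used, while CST4, CST2 and CST6 do not move.

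CST3, CST4, CST1 and CST2 lie in this order within 1 cluster of cystatin genes and pseudogenes on chromosome 20. The other 13 cystatin genes and pseudogenes within 500 kb had at most 3 counts in any library, and 9 had none at all. A gene with no count in the 6 libraries could be at up to 0.0231 CPM, the level of 3 counts over all of them, a limit that covers counting error only. CST5, which encodes cystatin D and is the nearest cystatin gene beyond CST2, had 3 counts in RCC replicate 1 and none elsewhere. Of the 39 genes in this window other than the 4, 4 passed the count filter and none was called by edgeR's quasi-likelihood test, by which 2.07% of all tested genes were called (Benjamini-Hochberg adjusted p under 0.05), 1.69% as higher and 0.378% as lower in SCC. At an unadjusted p under 0.05 there were also 0, a count given without the share of all tested genes. NXT1, a nuclear export factor gene, averaged 39.7 ± 0.243 CPM over SCC libraries against 37.6 ± 1.59 over RCC libraries (SD, n = 3). GZF1, a zinc finger gene, averaged 30.9 ± 3.13 and 33.4 ± 1.39 CPM. NAPB, a vesicle fusion gene, was at 17.1 ± 1.94 and 18.4 ± 1.61 CPM. AL121894.2, a noncoding gene within an intron of CST3 on the same strand, was at 0.419 ± 0.191 and 0.583 ± 0.0499 CPM.

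**Figure D4:**
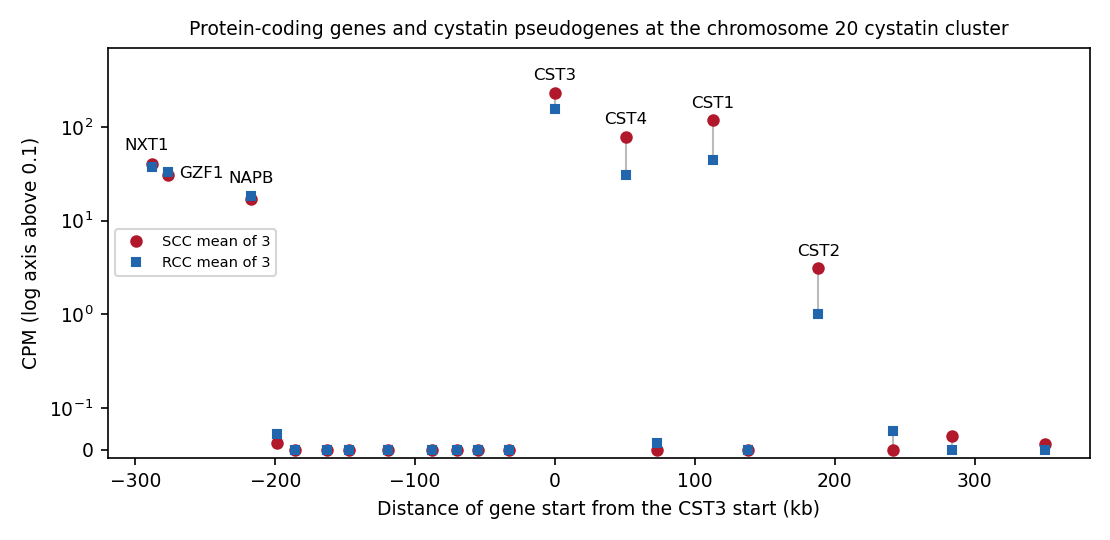
Mean CPM (log axis above 0.1) of protein-coding genes and cystatin pseudogenes near the chromosome 20 cystatin cluster, by distance of the gene start from that of CST3, with circles for SCC and squares for RCC. CST3, CST4, CST1 and CST2 stand above the other cystatin genes and pseudogenes, which are at or near 0 in both groups, and NXT1, GZF1 and NAPB were not called.

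Of the other members of the superfamily fixed for comparison (CST5, CST7, CST8, CST9, CST9L, CST11, CSTL1, AHSG, FETUB, HRG and KNG1), none passed the count filter. The highest count in any library was 11, for CST7, which encodes cystatin F of leukocytes. Salivary gland genes were largely silent too: 5 of 11 had no count in any library, among them STATH and HTN1, and 3 passed the filter. The one with the highest level was ZG16B, a secreted lectin-like gene, at 9.53 to 9.72 CPM in SCC and 8.08 to 9.40 in RCC.

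The proteases that cystatins inhibit were measured in the same libraries. Of 12 papain-like cathepsins and legumain, 11 passed the count filter and 0 were called by edgeR's quasi-likelihood test, against 2.07% of all tested genes. DESeq2 also called 0, against 4.09% of all tested genes. At an unadjusted p under 0.05, 2 were higher and 1 lower in SCC. The share of all tested genes at that threshold is not given here, so nothing is read from this count. The median log2 fold change of the 11 was 0.19, against 0.00 for all tested genes, with 7 above 0 and 4 below.

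CTSB, for cathepsin B, was at 210, 197 and 221 CPM in SCC and 182, 188 and 176 CPM in RCC. Its groups did not overlap, with a log2 fold change of 0.20 (standard error 0.067) and an edgeR adjusted p of 0.146. Without SCC replicate 1 it was called higher. LGMN, for legumain, was at 46.1, 47.7 and 47.3 CPM against 40.5, 40.9 and 44.2, a log2 fold change of 0.17 (edgeR adjusted p 0.253). CTSC, which activates serine proteases of granules, was at 95.8, 120.1 and 123 CPM against 127, 139 and 130.3, a log2 fold change of -0.23 (edgeR adjusted p 0.219). CTSL, for cathepsin L, had a log2 fold change of -0.05 with a standard error of 0.079. The summed level of the 12 genes was 615 to 650 CPM in SCC and 588 to 604 in RCC.

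Lysosomal proteases of other catalytic types, which cystatins do not inhibit, were set beside them. Of 6 such genes 4 passed the count filter, and 2 were called higher and 0 lower, against 1.69% and 0.378% of all tested genes. This list, like the other lists here, was chosen with earlier results of these data known. Its counts and adjusted p-values are therefore a description, and nothing is read from the share called. CTSD, for the aspartic protease cathepsin D, was at 194, 134 and 152 CPM in SCC and 99.1, 104 and 99.2 CPM in RCC, with a log2 fold change of 0.67, a standard error of 0.115 and an edgeR adjusted p of 0.0135. It was not called without RCC replicate 1, 2 or 3 (edgeR adjusted p 0.102, 0.0684 and 0.098), where its log2 fold change was 0.643, 0.686 and 0.646. Without SCC replicate 1, 2 or 3 the log2 fold change of CTSD was 0.505, 0.765 and 0.692, and the gene was called each time. With the GC offset the log2 fold change of CTSD was smaller, 0.41, and the gene was still called (edgeR adjusted p 0.000208). TPP1, a serine protease gene, was at 44.4, 47.1 and 46.5 CPM against 33.8, 35.1 and 28.2, with a log2 fold change of 0.50 and an edgeR adjusted p of 0.0218. The call of TPP1 was lost when SCC replicate 3 (adjusted p 0.0852) or RCC replicate 1, 2 or 3 (0.111, 0.0653 and 0.127) was left out. Whether the 2 groups of proteases differ from each other was not tested.

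**Figure D5:**
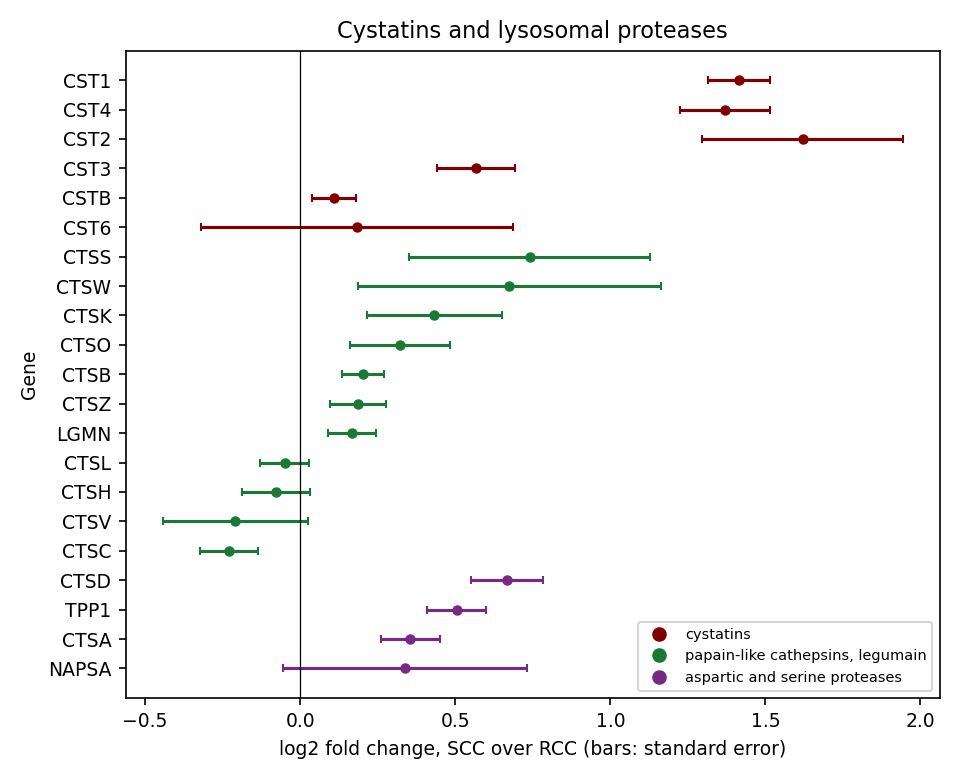
Log2 fold change of SCC over RCC, with its standard error, for cystatins and lysosomal proteases that passed the count filter. CST1, CST4 and CST2 lie between 1.37 and 1.62, the papain-like cathepsins and legumain between -0.23 and 0.74, and CTSD and TPP1 at 0.67 and 0.50.

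Cystatin A is also a component of the cornified envelope, the protein shell of keratinocytes, and genes of that structure were examined. Of 15 genes 7 had no count in any library, among them IVL, SPRR1B and SPRR3, and 5 passed the filter. By edgeR 0 were called, against 2.07% of all tested genes, and by DESeq2 also 0, against 4.09%. With 5 genes tested, nothing is read from these counts. At an unadjusted p under 0.05 there was 1 higher gene, DSP, for the junction protein desmoplakin. The share of all tested genes at that threshold is not given here. DSP averaged 90.95 ± 4.97 CPM over SCC libraries against 81.0 ± 4.65 over RCC libraries (SD, n = 3), with a log2 fold change of 0.17 (edgeR adjusted p 0.25). EVPL, for envoplakin, and PPL, for periplakin, had log2 fold changes of 0.21 and 0.87 with standard errors of 0.114 and 0.473. CSTA itself, at 0 to 6 counts, was thus measured alongside genes of which most were at or near 0. Besides DSP, the exceptions were EVPL, with means of 169.5 CPM in SCC and 146 in RCC, and FLG, with 35.4 and 37.2.

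Genes whose pattern over the 6 libraries was most like that of CST1 were sought among 10912 other tested genes with a mean of at least 5 CPM. CST2 and CST6 lay under that limit, so neither could appear among the genes nearest to another member. Likeness was the root mean square difference of log2 CPM after each gene was centred on its own mean. A small count was added before the log, which draws the values of low-count genes together. The nearest were NFKBIA (0.088), CST4 (0.107), TFF3 (0.119), PPP1R15A (0.132) and ZFP36 (0.137). NFKBIA, the inhibitor of NF-kB, was at 149.7, 134 and 138 CPM in SCC and 50.2, 50.5 and 52.0 CPM in RCC. TFF3, for a secreted trefoil peptide, was at 16.4, 15.9 and 18.9 CPM against 6.65, 6.79 and 6.66. All 5 were higher in every SCC library, as the measure requires of a gene that matches CST1. For CST4 the nearest gene was CST1, again at 0.107. The 5 nearest to CST2 included CST4 (0.326) and CST1 (0.349), behind PDK4 (0.257) and FMOD (0.308). CST1, CST2 and CST4 were chosen with the contrast of SCC and RCC known, so their likeness to each other is a description. The part of their shared sequence stretches in it was not tested. CST3 was in position 169 in the order of likeness to CST1, at 0.446, and CSTB in position 3304, at 0.664. Seen from the other side, CST1 was in position 9262 of 10912 for CST3 and 10879 for CSTB. A position thus depends on the gene taken as reference, and 169 does not mean that CST3 followed CST1 closely.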

How the data were processed

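Per the submitters' processing notes, HISAT2 2.0.5 and featureCounts 1.5.0-p3 were used, and per the labels' protocols TRIzol RNA went into NEBNext Ultra libraries. Settings, strand use and genome build were not given in the sources used here. The authors deposited whole-number counts per gene and FPKM per gene. All 58735 rows matched GENCODE release 29 (GRCh38) by ID and position. Each FPKM of a gene with counts of 20 or more equalled, within 0.1%, the deposited count over the gene length and 1 constant per library, 0.983 to 1.02 times its total. Counts were filtered with filterByExpr (minimum count 10), scaled by TMM and fitted on group with edgeR 4.0.16 in R 4.3.3. Quasi-likelihood tests were two-sided, with Benjamini-Hochberg adjustment over 15881 genes, and called under 0.05. The procedure was checked on simulated data. CPM use TMM-scaled totals, and a standard error is the fold change over the square root of F. Sequence identity and GC content come from GENCODE transcripts, with pairwise alignment in Biopython 1.88. The sequences themselves are not reported here. Alternatives were DESeq2 1.42.0, RLE scaling, no filter, the replicate block, each library left out, limma 3.58.1 on log2 FPKM with 1 or 0.1 added (genes reaching 1 FPKM in 3 libraries) and, added after seeing the data, a GC offset and other lengths. Named were all 7 cystatins, the called genes or 3 smallest p of each protease and envelope list, and the 5 genes nearest in pattern. Other named genes were chosen after their values were seen. Members and lists were chosen with earlier results of these data known. A sign-flip test planned for the order of levels is not reported, since those levels served to choose the genes. The main fit did not treat same-numbered libraries as pairs. Whether replicate numbers mark pairs was not given in the sources used here.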

Additional observations from a re-analysis of the deposited data

How the results depend on the processing

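The log2 fold changes of CST1, CST2, CST3, CST4 and CSTB were above 0 in all 14 alternatives, between 1.27 and 1.49 for CST1 and between 1.21 and 1.52 for CST4. The alternatives refit the same libraries that served to choose these genes, so the shared sign is a description and no independent support. For CSTB the groups overlapped, and the main value was 0.11 with a standard error of 0.071. CST2 was at 1.11 with limma on log2(FPKM + 1) against 1.62. CST3 ran from 0.37 (SCC replicate 1 left out) to 0.67, and CSTB from 0.045 (replicate block with GC offset) to 0.147 (SCC replicate 1 left out). CST6 was above 0 in 8 and below in 4 of 12. The count of called genes over all tested was 328. It was 1310 with no filter beyond 1 count, 650 with DESeq2, 768 with the GC offset and 1051 with the replicate block and GC offset. Leaving out 1 library gave 107 (RCC replicate 1 left out) to 985 (SCC replicate 1 left out), with 846 and 198 without SCC replicates 2 and 3 and 113 and 114 without RCC replicates 2 and 3. The cause was not tested. Papain-like cathepsins and legumain held 0 to 1 called genes when 1 library was left out. Same-numbered libraries did not deviate together (correlations -0.00912, 0.0249 and -0.0788), and with the replicate block 456 genes were called and CST1 was at 1.41. Shares of stretches found in another gene were 23.6%, 8.30%, 30.2% and 0.15% at 50 bases for CST1, CST2, CST4 and CSTB, and 0.415% and 0.498% at 150 bases for CST1 and CST4. Depth limits CSTA and CST6, at no more than 25 counts per library.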

Other observations

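The genes most like CST3 over the 6 libraries shared the high value of SCC replicate 1. They were UBALD1, TMEM132A, COL18A1, FSTL3 and MRC2, at root mean square differences of 0.031 to 0.048. COL18A1 encodes a basement membrane collagen and FSTL3 a secreted binder of activins. Those nearest to CSTB (EAF1, PDRG1, TDP1, ARMCX6 and STK17A) lay at 0.016 to 0.025. For CST6 the nearest was IKBKG at 0.225, and for CST2 it was PDK4 at 0.257. Both lay farther than the fifth nearest gene of CST1, CST3, CST4 or CSTB. CST2 and CST6 had the lowest counts of the members compared, and the part of counting error in their distances was not tested.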
